A study of Mus musculus with 14 samples.

Results

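Cholesterol is made in the cell from acetyl-CoA in a long chain of enzyme steps, and 8 genes of that chain are described here through mouse lung development: Hmgcs1, Idi1, Fdps, Fdft1, Sqle, Lss, Cyp51 and Dhcr7. They were found by gene symbol in the platform annotation, which held all 8 among 18193 genes with a probe set of their own. The data were 14 oligonucleotide arrays of ICR mouse lung, labelled female, with 2 arrays for each of 7 time points: embryonic days 12, 14, 16 and 18 (E12, E14, E16 and E18), postnatal days 2 and 10 (P2 and P10) and the mouse at postnatal day 30 (Adult). The RNA was taken from pooled whole lungs, and no group carried a treatment or an allele of its own. Neither the number of lungs in a pool nor whether the replicates were separate pools is stated, so each SD, SE and p measures the spread between these arrays, which may be technical. The values are log2 intensities as the authors deposited them. Array medians lay between 6.55 and 6.62, and replicates of a time point correlated at r of 0.9953 to 0.9977 over 45037 probe sets. Lung epithelium was present in every array, with Sftpc between 10.78 and 14.83. In whole lung, fewer cells of a type and less RNA per cell cannot be told apart.

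In the early steps of the pathway, acetyl units are joined and reduced to mevalonate, which becomes the isoprene units that also feed ubiquinone, dolichol and protein prenylation. Later steps join these units to squalene, close the ring to lanosterol and trim lanosterol to cholesterol. The genes are known as shared targets of the SREBP transcription factors, which are held in the endoplasmic reticulum by Insig proteins when sterols are plentiful and released to the nucleus when they are scarce. In the lung, cholesterol is a part of every new cell membrane and the main neutral lipid of surfactant, the film made by alveolar type II cells. Of the 8 genes, Hmgcs1 encodes cytosolic HMG-CoA synthase and Idi1 the isomerase that interconverts the isoprene units. Fdps encodes farnesyl diphosphate synthase, at the branch to prenylation. Fdft1 encodes squalene synthase, which commits farnesyl units to sterols, Sqle encodes squalene epoxidase and Lss lanosterol synthase. Cyp51 encodes the demethylase of lanosterol and Dhcr7 the reductase that gives cholesterol from 7-dehydrocholesterol.

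Because these genes share a known regulator, the 150 bases before the annotated start are shown for the members that had a window in the RefSeq promoter table (GRCm38.p6), each read 5′ to 3′ on the strand of its gene. A window was held for 5 of the 8 members, and none was found for Fdps, Fdft1 and Sqle. Capitals mark exact matches on either strand to TCACNCCAC (the core of a sterol regulatory element), CCAAT (the NF-Y box) and GGGCGG (the Sp1 box).
Hmgcs1, chr13:119690201-119690350 (+): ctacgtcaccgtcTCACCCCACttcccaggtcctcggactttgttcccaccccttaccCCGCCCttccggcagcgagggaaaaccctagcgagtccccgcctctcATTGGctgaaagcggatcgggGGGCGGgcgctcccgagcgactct
Idi1, chr13:8885456-8885605 (+): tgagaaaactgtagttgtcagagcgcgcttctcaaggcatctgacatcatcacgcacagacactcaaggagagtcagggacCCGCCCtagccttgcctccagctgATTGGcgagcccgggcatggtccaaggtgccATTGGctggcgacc
Lss, chr10:76531455-76531604 (+): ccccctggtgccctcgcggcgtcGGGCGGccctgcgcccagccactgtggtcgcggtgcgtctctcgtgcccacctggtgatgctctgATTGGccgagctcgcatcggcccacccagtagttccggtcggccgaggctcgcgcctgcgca
Cyp51, chr5:4104698-4104847 (-): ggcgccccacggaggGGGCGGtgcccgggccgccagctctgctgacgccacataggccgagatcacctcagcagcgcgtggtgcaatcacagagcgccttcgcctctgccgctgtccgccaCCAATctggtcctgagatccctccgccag
Dhcr7, chr7:143830064-143830213 (+): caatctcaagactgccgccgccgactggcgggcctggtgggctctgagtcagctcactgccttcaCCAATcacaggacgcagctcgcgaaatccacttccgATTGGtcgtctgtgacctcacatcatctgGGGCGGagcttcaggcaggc

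All 250 bases before each start were searched on both strands, and a gene with several starts counted if any of its windows held a match. All 5 members held CCAAT, which 37.5% of 27025 genes with a window held, and all 5 held GGGCGG, which 35.4% of genes held. The exact sterol element core was found in Hmgcs1 alone, at position -137 from the start, against 1.22% of all genes. With at most 1 mismatch it was found in Hmgcs1, Cyp51 and Dhcr7, but 23% of all genes then held it. The E-box CACGTG was found in 1 of the 5 members, Dhcr7, and in 6.86% of genes. Dhcr7 had 3 annotated starts, and the E-box and the near match to the sterol element lay before another start than the one shown. These matches are letters in a window and were not tested for binding.

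With the probe set used for each gene, all 8 genes were highest at E12 and lowest at E18 or P10. Other probe sets of some members, among them Lss, had their highest or lowest mean at other time points. The fall came in a pair of steps, with 6 of the 8 genes lower at E16 than at E14 and 6 lower at E18 than at E16, and part of it was made up after birth. By E18 the level of Cyp51 had dropped 5.25-fold below E12, that of Dhcr7 4.58-fold and that of Sqle 4.57-fold, against 1.82-fold for Hmgcs1. In the Adult all 8 genes stayed below E12 with the sets used, while 6 of them were above E18. Of the 11663 measured genes, those whose highest time-point mean (Max) was above 7 on the log2 scale, 956 or 8.2% were also highest at E12 and lowest at E18 or P10. This class was drawn from the extremes of the members themselves, so that all 8 fall in it by construction. A gene was called dynamic when the moderated F test of limma gave an adjusted p under 0.05, Max was above 7 and the difference between its highest and lowest time-point mean (Range) was above 1.2. By this rule 6 of the 8 members were dynamic, against 41.7% of the measured genes. Hmgcs1 and Lss missed it on Range, at 0.92 and 1.11, with adjusted p of 8.4e-05 and 3.6e-04 in the F test. The count depends on the set used. 1433446_at of Hmgcs1 (Range 1.414) and 1426913_at of Lss (Range 1.201) were dynamic. The remaining sets of both genes were not, nor were some sets of Fdps, Fdft1 and Cyp51.

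The enzymes of the early steps differed in how deep they went. For Hmgcs1, the array values of replicates 1 and 2 were 11.94 and 11.53 at E12, 11.55 and 11.49 at E14, 10.78 and 11.01 at E16, 10.95 and 10.80 at E18, 11.005 and 11.146 at P2, 10.77 and 10.86 at P10, and 10.99 and 10.94 in the Adult. It dropped once, between E14 and E16, and its 10 later arrays stayed within 10.77 and 11.15. Idi1 gave 10.77 and 10.54 at E12, 10.55 and 10.44 at E14, 9.78 and 9.97 at E16, 9.04 and 8.87 at E18, 9.56 and 9.48 at P2, 9.05 and 9.23 at P10, and 9.92 and 10.32 in the Adult. It had a low point at E18, a partial return at P2, a second low at P10 and the fullest return of the 8 genes in the Adult, where 68.7% of its log2 fall between E12 and E18 was made up. Fdps gave 10.99 and 11.12 at E12, 10.80 and 10.55 at E14, 10.10 and 10.05 at E16, 9.25 and 9.35 at E18, 9.66 and 9.51 at P2, 9.24 and 9.25 at P10, and 9.56 and 9.75 in the Adult. Its E18 and P10 arrays lay together at the bottom of its course, and the Adult arrays made up 20.5% of the fall.

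Of the squalene and lanosterol steps, Sqle spanned more than the early enzymes (Range 2.19), and Fdft1 and Lss did not (1.61 and 1.11, against 1.81 for Fdps). Fdft1 stood at 10.28 and 10.34 at E12, 9.94 and 9.93 at E14, 9.58 and 9.66 at E16, 8.74 and 9.13 at E18, 9.07 and 9.07 at P2, 8.66 and 8.74 at P10, and 9.25 and 9.40 in the Adult. Its E18 arrays lay further apart than those of any other time point, and they overlapped the arrays of P2 and P10. Sqle stood at 10.80 and 10.65 at E12, 10.47 and 10.40 at E14, 9.50 and 9.72 at E16, 8.47 and 8.60 at E18, 9.09 and 9.06 at P2, 8.72 and 8.87 at P10, and 9.35 and 9.35 in the Adult. No neighbouring pair of time points overlapped in the order of its levels, which ran E12, E14, E16, Adult, P2, P10 and E18. Lss stood at 8.40 and 7.80 at E12, 7.96 and 7.76 at E14, 7.31 and 7.33 at E16, 6.98 and 7.10 at E18, 7.23 and 7.16 at P2, 7.15 and 6.83 at P10, and 7.26 and 7.63 in the Adult. Its replicates were the least alike of the 8 genes at E12, where replicate 1 alone was above all other arrays.

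The last enzymes of the chain had low points of much the same depth. Cyp51 read 9.74 and 9.47 at E12, 9.31 and 9.07 at E14, 8.02 and 8.35 at E16, 7.20 and 7.22 at E18, 8.0 and 7.85 at P2, 7.48 and 7.77 at P10, and 7.97 and 8.31 in the Adult. Both E18 arrays were below every other array. Dhcr7 read 9.02 and 9.12 at E12, 8.94 and 8.90 at E14, 7.86 and 7.79 at E16, 6.83 and 6.91 at E18, 7.64 and 7.59 at P2, 7.63 and 7.89 at P10, and 7.72 and 7.90 in the Adult. It too had both E18 arrays at the bottom, but after P2 it stayed within 7.59 and 7.90 and had no second low. With the probe sets used, every array of E12 and E14 lay above every array of E16 and later in all 8 genes.

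**Figure D1:**
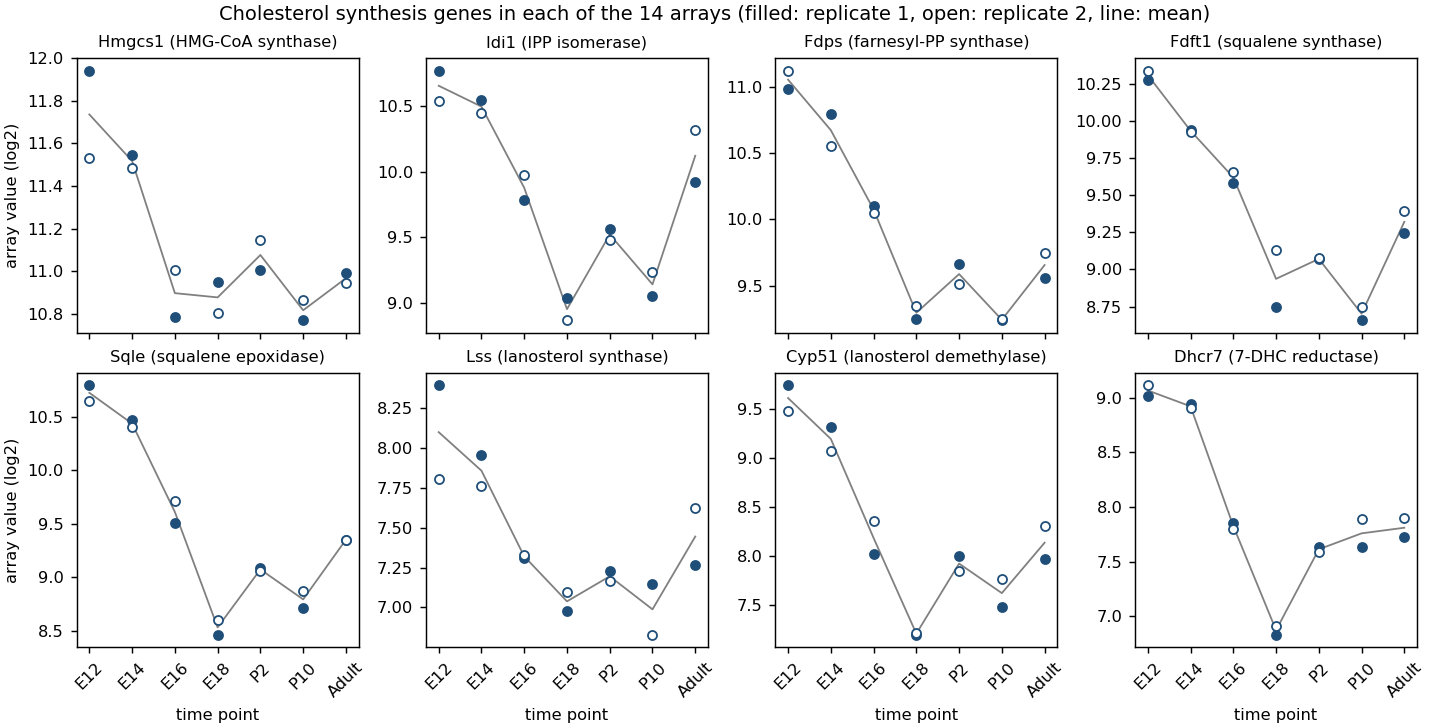
Array value (log2, y axis, scaled to each gene) of the 8 genes at the 7 time points (x axis), with filled points for replicate 1, open points for replicate 2 and a line through the means. Every gene is highest at E12, 4 of them (Idi1, Sqle, Cyp51, Dhcr7) are lowest at E18 and the other 4 at P10.

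The members moved together more closely in some pairs than in others. Over the 14 arrays Pearson's r between 2 members ran between 0.805 (Hmgcs1 with Idi1) and 0.986 (Sqle with Cyp51), with a median of 0.907 over 28 pairs. Over the 7 time-point means it ran between 0.827 and 0.992. The arrays share the time course, so these values describe likeness and carry no test.

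With the probe sets used, the mean was lower at E14 than at E12 in all 8 genes, but none passed the test. Cyp51 had the largest difference at -0.41 ± 0.15 (SE, adjusted p = 0.205 in limma) and Dhcr7 the smallest at -0.15 ± 0.10. Among the members' other sets with Max above 7, 1422533_at of Cyp51 differed by 0.58 ± 0.16 (adjusted p = 0.0772) and the second set of Idi1 by 0.02. The rest of these sets were lower at E14. Among all measured genes 0.986% were lower and 5.12% higher at E14. Fdft1 passed without E18 replicate 1 or 2, which lowered the shared estimate of its spread (-0.38, adjusted p = 0.0425). The E14 arrays were below the E12 arrays without overlap in Fdps, Fdft1, Sqle, Cyp51 and Dhcr7.

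The 6 genes that fell between E14 and E16 were Hmgcs1, Idi1, Fdps, Sqle, Cyp51 and Dhcr7, against 15.3% of measured genes lower and 13.7% higher. Dhcr7 averaged 7.82 ± 0.04 at E16 and 8.92 ± 0.03 at E14 (SD, n = 2 each), a 2.14-fold drop (log2 difference -1.10 ± 0.10 SE, adjusted p = 1.3e-05 in limma). Cyp51 fell 2.01-fold and Sqle 1.77-fold, with adjusted p of 6.6e-04 and 1.2e-04. Hmgcs1, Idi1 and Fdps fell between 1.51-fold and 1.54-fold. Fdft1 and Lss, at -0.31 ± 0.12 and -0.54 ± 0.17, did not pass (adjusted p = 0.0801 and 0.051), although their arrays did not overlap either. Each of them passed where an array of another time point that widened its spread was left out, Fdft1 without E18 replicate 1 or 2 (adjusted p = 0.0311) and Lss without an array of E12 (0.0174), P10 (0.0487) or Adult (0.0428). The median difference was -0.62 over the members and -0.03 over all measured genes.

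The E16 arrays held heart muscle markers at unequal levels, and the values without the array that held more are therefore given. Myl2, a ventricular light chain, read 12.63 and 8.84 in replicates 1 and 2 at E16 and between 4.65 and 6.27 in all other arrays. The summed linear level of the 10 heart markers ran between 2500 and 16960 at E16 and between 659.7 and 9630 at the other time points. Without E16 replicate 1, Hmgcs1 and Idi1 no longer passed (-0.51 with adjusted p = 0.0635, and -0.52 with adjusted p = 0.0782), and Fdps, Sqle, Cyp51 and Dhcr7 did. Idi1 was also lost without E14 replicate 1 (-0.56, adjusted p = 0.0663). The members' calls at E18 against E16 were all kept without E16 replicate 1.

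Between E16 and E18, 6 genes fell, with Idi1, Fdps, Sqle, Cyp51 and Dhcr7 falling for the second time and Fdft1 for the first, while Hmgcs1 and Lss did not pass the test. Sqle averaged 8.53 ± 0.10 at E18 and 9.61 ± 0.15 at E16 (SD, n = 2 each), a 2.11-fold drop with a log2 difference of -1.08 ± 0.10 (SE, adjusted p = 1.7e-06 in limma). Cyp51, Dhcr7 and Idi1 fell 1.96-fold, 1.94-fold and 1.89-fold, and Fdps and Fdft1 1.72-fold and 1.61-fold. Those 6 genes compare with 30.7% of measured genes lower and 33.1% higher at E18, so that a fall at this step was common. Hmgcs1 differed by -0.02 (95% confidence interval -0.30 to 0.26), and this interval lay above those of the 6 genes that fell. Lss differed by -0.28 (interval -0.66 to 0.09, adjusted p = 0.231). Leaving out E16 replicate 2 or E18 replicate 2 turned the small difference of Hmgcs1 to 0.09 and 0.05.

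Markers of dividing cells and of type II cells moved at the same step. All 9 measured dividing cell markers fell at E18 (median difference -2.80), and 7 of 9 type II cell markers rose (median 2.13). Macrophage markers rose in 6 of 8 cases and adipose and lipofibroblast markers in 3 of 5. At E16 against E14, where the members had already fallen, 8 of 9 type II cell markers rose and 1 fell (median 1.34), 9 of 9 measured heart markers rose, and 2 of 9 dividing cell markers fell (median -0.20). The summed linear level of the dividing cell markers ran between 3030 and 3421 at E18 and between 19910 and 21640 at E16. That of the type II cell markers ran between 82960 and 83890 at E18, 29480 and 31600 at E16 and 11200 and 15750 at E14. The part of these cells in the fall of the members was not tested. Liver markers, which could stand for adhering liver, stayed low at every time point: 1 of 8 was above 7, Alb read between 5.43 and 6.02 over the 14 arrays and Afp between 4.37 and 6.77. Afp and Apoa1 were highest at E12 (means 6.43 and 6.67) and the others at other time points. The summed linear level of the 8 ran between 480.7 and 595 at E12 and between 419.6 and 496.6 at the other time points. Its part in the members' course was not tested.

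After birth 4 genes rose, the same 4 that had their low point at E18. Both descriptions draw on the same E18 arrays, so the match is partly built in. Dhcr7 averaged 7.61 ± 0.04 at P2 and 6.87 ± 0.06 at E18 (SD, n = 2 each), a 1.67-fold rise (0.74 ± 0.10 SE, adjusted p = 3.1e-04 in limma). Cyp51 rose 1.64-fold, Idi1 1.48-fold and Sqle 1.46-fold. The count of 4 of 8 stands beside 11.5% of measured genes higher and 14.1% lower at P2. Fdps (0.29 ± 0.11), Hmgcs1, Lss and Fdft1 did not pass, with adjusted p between 0.0909 and 0.626. The calls of Idi1 and Cyp51 were the weakest. Without P2 replicate 1 the adjusted p was 0.0941 for Idi1 (0.52) and 0.0681 for Cyp51 (0.64), and Idi1 was also lost without E18 replicate 2 (0.48, adjusted p = 0.0886) or P2 replicate 2 (0.61, adjusted p = 0.0519). At the same step dividing cell markers rose in 6 of 9 cases (median 0.54) and macrophage markers in 5 of 8 with 1 lower (median 0.58), and lung epithelium markers fell in 4 of 6 (median -0.49). The summed linear level at P2 and at E18 ran between 4349 and 4430 and between 3030 and 3421 for dividing cells, between 27040 and 28660 and between 26930 and 27320 for macrophages, and between 5941 and 5975 and between 9467 and 9779 for lung epithelium. Their part in the rise of the members was not tested.

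No member passed between P2 and P10, where 5.9% of measured genes were lower and 6.76% higher. The mean was lower at P10 in 7 of the 8 genes, by -0.21 to -0.38, and Dhcr7 differed by 0.15 the other way. Fdft1 and Fdps came nearest, at -0.37 ± 0.12 and -0.34 ± 0.11 (SE, adjusted p = 0.0777 and 0.0799). With the sets used, the P10 arrays were below the P2 arrays without overlap in all 7 genes with a lower mean. The test of Fdft1 turned on the E18 arrays, through the shared estimate of the spread: without E18 replicate 1 or 2 its adjusted p at this step was 0.028.

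Between P10 and the Adult 5 genes rose, against 21.2% of measured genes higher and 21.4% lower. Idi1 averaged 10.12 ± 0.28 in the Adult and 9.14 ± 0.13 at P10 (SD, n = 2 each), a 1.97-fold rise (0.98 ± 0.14 SE, adjusted p = 1.1e-04 in limma). Fdft1, Sqle, Cyp51 and Fdps rose 1.54-fold, 1.47-fold, 1.43-fold and 1.33-fold. Hmgcs1 (0.15 ± 0.13), Lss (0.46 ± 0.17) and Dhcr7 (0.05 ± 0.10) did not pass. Without Adult replicate 2 Fdps (0.32, adjusted p = 0.115) and Cyp51 (0.34, adjusted p = 0.223) did not pass, which left 3 genes, and Cyp51 was also lost without P10 replicate 1 (0.37, adjusted p = 0.184). Lss passed without Adult replicate 1 (0.64, adjusted p = 0.042) and without either E12 array (0.46, adjusted p = 0.0258), and Dhcr7 turned to -0.04 without Adult replicate 2 and to -0.08 without P10 replicate 1. The dividing cell markers went the other way here, with all 9 lower in the Adult (median -2.36). Macrophage markers were higher in 6 of 8 cases, type II cell markers in 5 of 9 and adipose and lipofibroblast markers in 4 of 5. Adipoq, a defining gene of fat cells, read 7.72 and 6.74 in the Adult and 3.76 and 3.55 at P10. The summed linear level of the 7 adipose and lipofibroblast markers with a probe set ran between 8522 and 9879 in the Adult and between 6371 and 6634 at P10. The part of these cells in the rise of the members was not tested.

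Over the whole course all 8 genes were lower in the Adult than at E12, beside 42.5% of measured genes lower and 39.5% higher. Cyp51 averaged 8.14 ± 0.24 in the Adult and 9.61 ± 0.19 at E12 (SD, n = 2 each), a 2.77-fold difference (-1.47 ± 0.15 SE, adjusted p = 1.5e-06 in limma). Fdps, Sqle and Dhcr7 were 2.64-fold, 2.59-fold and 2.39-fold lower, and Fdft1 1.99-fold. Hmgcs1, Lss and Idi1 were 1.71-fold, 1.58-fold and 1.45-fold lower. The calls of Idi1 and Lss rested on single arrays. Without Adult replicate 1 the differences were -0.33 for Idi1 (adjusted p = 0.0659) and -0.47 for Lss (adjusted p = 0.0653), and without E12 replicate 1 that of Lss was -0.36 (adjusted p = 0.0885). The call of Lss was also lost with another of its probe sets, 1426913_at (0.20, adjusted p = 0.285).

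Against E18 the Adult was higher in 6 genes, all but Hmgcs1 and Lss, beside 22.6% of measured genes higher and 28.7% lower. Idi1 was 2.24-fold higher (1.17 ± 0.14 SE, adjusted p = 1.8e-05 in limma), Dhcr7 1.92-fold, Cyp51 1.90-fold and Sqle 1.76-fold. Fdft1 and Fdps were 1.31-fold and 1.28-fold higher. The calls of Fdft1 and Fdps were lost without E18 replicate 1 (0.19 with adjusted p = 0.234, and 0.31 with adjusted p = 0.114) and without Adult replicate 2 (0.31 with adjusted p = 0.131, and 0.27 with adjusted p = 0.157). Lss, at 0.41 ± 0.17 (adjusted p = 0.0898), passed without Adult replicate 1 (0.59, adjusted p = 0.0477) or either E12 array (adjusted p = 0.0347). The share of the fall between E12 and E18 that was made up in the Adult ran between 10.4% for Hmgcs1 and 68.7% for Idi1.

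Among the other enzymes of the chain, most fell at E18 and a few did not. Of 13 listed, 10 had a probe set with 1 gene symbol and all 10 were measured. At E18 against E16, 6 of them fell and 1 rose (median -0.39), and at E16 against E14, 4 fell and 1 rose (median -0.32). Among all measured genes 30.7% were lower and 33.1% higher at E18, and 15.3% were lower and 13.7% higher at E16. Msmo1, the methyl sterol oxidase that acts after Cyp51, read 7.58 and 7.55 at E18 and 8.36 and 8.40 at E16, and it fell by 0.81 ± 0.09 (SE, adjusted p = 6.9e-06 in limma). It rose by 0.88 ± 0.09 at P2 (adjusted p = 2.4e-05), fell by 0.47 ± 0.09 at P10 (adjusted p = 0.00636) and rose again to 9.09 and 9.18 in the Adult, against 7.96 and 8.0 at P10. Hsd17b7, a keto reductase of the same steps, fell by 0.70 ± 0.14 at E18 and rose by 0.72 ± 0.14 at P2. It was highest after birth at P10, at 8.72 and 9.03, and read 8.22 and 7.84 in the Adult, a fall of 0.84 ± 0.14 (adjusted p = 3.7e-04) at a step where the means of all 8 members were higher.

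A pair of late enzymes, Ebp and Sc5d, were higher in the Adult than at E12, and for Sc5d the call depended on the probe set. Sc5d, the desaturase whose product Dhcr7 reduces, read 8.18 and 8.13 at E18 and 7.61 and 7.60 at E16, a rise of 0.55 ± 0.12 (SE, adjusted p = 0.0017 in limma). In the Adult it read 9.21 and 9.34, against 8.38 and 7.97 at E12. With its next highest probe set the differences were -0.05 at E18 against E16 (adjusted p = 0.796) and 0.29 in the Adult against E12 (adjusted p = 0.0676), so that neither call was kept. With the mean of its 3 sets they were 0.21 (adjusted p = 0.0818) and 0.63 (adjusted p = 4.9e-05). Ebp, the sterol isomerase just before it, was 1.07 ± 0.09 higher in the Adult than at E12 and did not differ between E18 and E16 (-0.01 ± 0.09). With the probe sets used, these were the only 2 of the 10 enzymes higher in the Adult than at E12, and 7 were lower. Beside them stand 39.5% of measured genes higher and 42.5% lower.

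**Figure D2:**
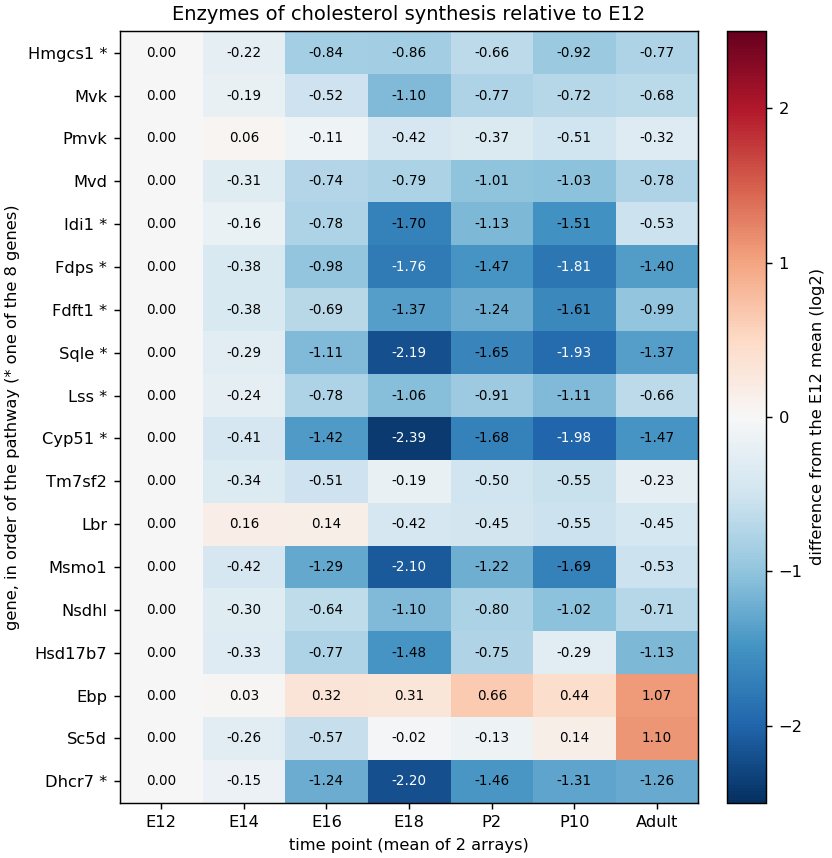
Difference from the E12 mean (log2, colour and printed value, mean of 2 arrays) for 18 enzymes in pathway order (rows, asterisks for the 8 genes) at the 7 time points (columns). Blue deepens at E18 for most rows, to -2.39 for Cyp51, while Ebp and Sc5d end at 1.07 and 1.10 in the Adult.

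The isoprenoid branch draws on the same precursors. Of 6 listed genes 5 were measured. At E18 against E16, 3 fell and 1 rose, beside 30.7% of measured genes lower and 33.1% higher. Dhdds, of dolichol synthesis, fell by 0.62 ± 0.09 (SE, adjusted p = 9.0e-05 in limma) and Fntb, the beta subunit of protein farnesyltransferase, rose by 0.31 ± 0.11 (adjusted p = 0.0364), a call that was lost when any single array of E16, E18 or P2 was left out. Pdss2, of ubiquinone synthesis, was 1.10 ± 0.12 lower in the Adult than at E12, and Ggps1, geranylgeranyl diphosphate synthase, differed by -0.18 ± 0.10 (adjusted p = 0.133).

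Of the transcripts of the SREBP system, 4 of 7 rose at E18 against E16 and none fell (median 0.53), beside 33.1% of all measured genes higher. Scap (0.17), Mbtps1 (0.08) and Mbtps2 (-0.06), which carry and cleave the factors, did not pass. Srebf1 read 10.06 and 9.96 at E18 and 8.90 and 8.84 at E16, a rise of 1.14 ± 0.10 (SE, adjusted p = 1.2e-06 in limma). Srebf2, whose product is known as the main activator of the cholesterol genes, read 9.36 and 9.17 at E18 and 8.89 and 8.59 at E16, a rise of 0.53 ± 0.11. Insig1 and Insig2, which hold the factors back, rose by 0.58 ± 0.13 and 0.59 ± 0.15. In the Adult, Srebf1 was 1.05 ± 0.10 and Srebf2 0.32 ± 0.11 above E12. Transcript levels say nothing of how much of the factors was cleaved or in the nucleus.

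Most genes of fatty acid synthesis, which also include SREBP targets, moved against the called cholesterol genes at the steps to E18 and to P2, but not at E16. At E16 against E14, 3 of 8 fell and 1 rose (median -0.40), where 6 of the 8 cholesterol genes fell as well. Among all measured genes 15.3% were lower and 13.7% higher at that step. At E18 against E16, 7 of 8 rose and 1 fell (median 0.97), where 6 of the 8 cholesterol genes fell. Among all measured genes 33.1% were higher and 30.7% lower at E18. Scd1, stearoyl-CoA desaturase, read 12.16 and 12.04 at E18 and 7.04 and 5.98 at E16, a difference of 5.59 ± 0.23 (SE, adjusted p = 1.2e-09 in limma). Fasn, fatty acid synthase, rose by 1.88 ± 0.13 and Acss2, a cytosolic acetyl-CoA synthetase, by 2.28 ± 0.10. Elovl6, a fatty acid elongase, was the exception and fell by 1.23 ± 0.13. At P2 against E18, 6 of the 8 fell (median -0.92), where 4 of the cholesterol genes rose. Among all measured genes 14.1% were lower and 11.5% higher at P2. In the step to the Adult 6 of 8 fatty acid genes and 5 of 8 members were higher than at P10, beside 21.2% of measured genes. At this step 4 of 5 adipose and lipofibroblast markers were higher as well.

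**Figure D3:**
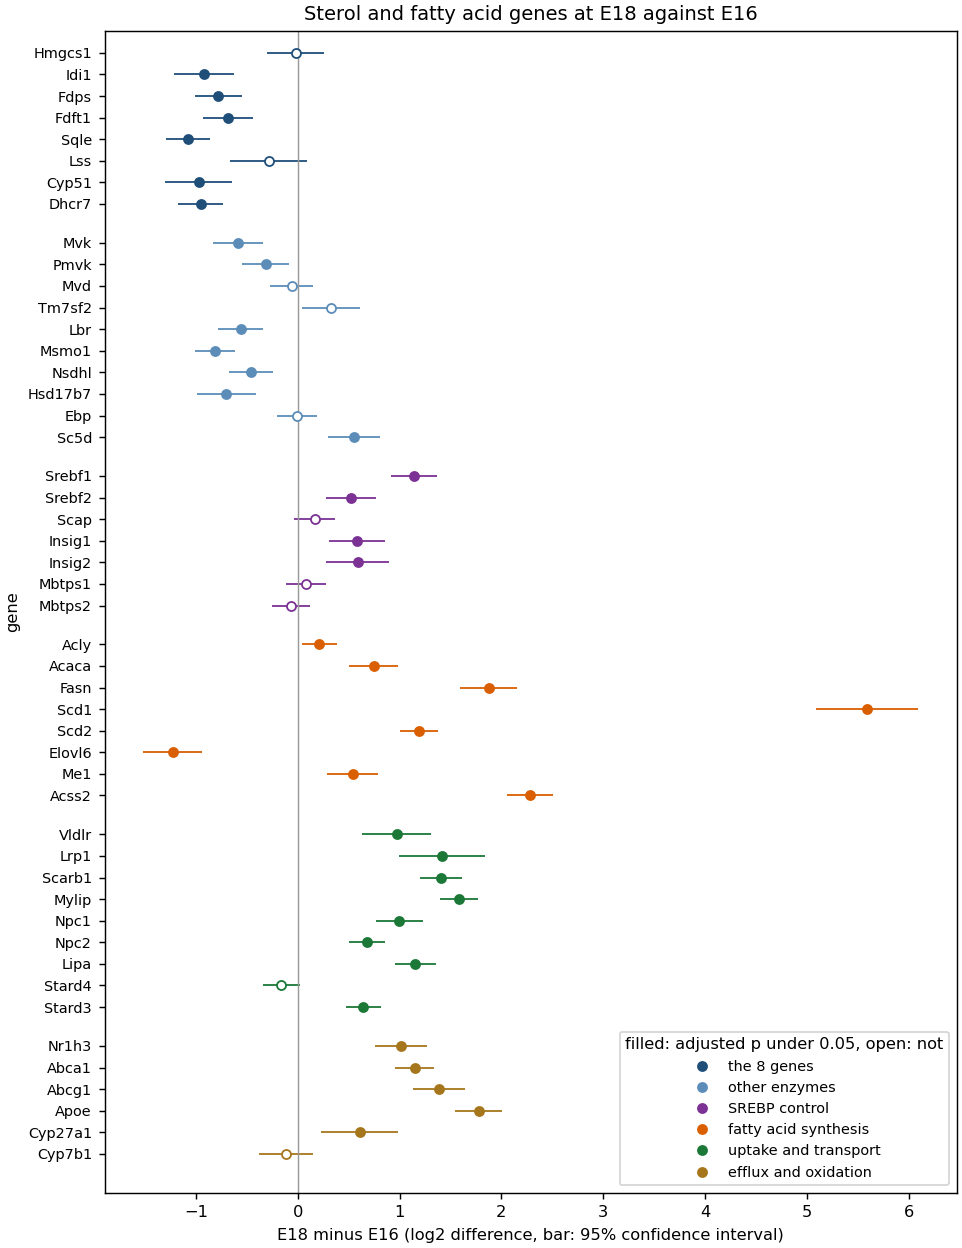
Difference between E18 and E16 (log2, x axis) with its 95% confidence interval for the measured genes of 6 lists (rows, coloured by list), filled where the adjusted p was under 0.05. The cholesterol enzymes lie mostly left of 0, with Hmgcs1 at -0.02, and the genes of fatty acid synthesis, uptake and efflux lie mostly right of it, with Scd1 at 5.59.

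Most genes for taking up and moving sterols rose at E18. Of 11 listed, 9 were measured, and at E18 against E16, 8 rose and none fell (median 1.0). Beside them stand 33.1% of measured genes higher and 30.7% lower. Vldlr, a lipoprotein receptor, read 10.98 and 10.85 at E18 and 10.09 and 9.80 at E16, and it stood at 6.94 and 6.91 at E12. Lipa, the lysosomal lipase that frees cholesterol from lipoproteins, rose by 1.15 ± 0.09 (SE, adjusted p = 4.1e-07 in limma). Lrp1, a scavenging receptor, rose by 1.42 ± 0.20, and Mylip, a ligase that degrades lipoprotein receptors, by 1.58 ± 0.08. At P2, 4 of the 9 fell and none rose, beside 14.1% of measured genes lower and 11.5% higher.

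Sterol efflux and oxidation genes gave a like picture. Of 11 listed, 6 were measured, and at E18 against E16, 5 rose and none fell (median 1.08). The shares of measured genes at this step were 33.1% higher and 30.7% lower. Apoe, a carrier of cellular cholesterol, read 12.57 and 12.56 at E18 and 10.75 and 10.83 at E16, and fell by 1.64 ± 0.11 at P2 (SE, adjusted p = 5.1e-07 in limma). Abcg1, an exporter of cholesterol, read 10.84 and 11.06 in the Adult and 7.20 and 7.52 at E12, a difference of 3.59 ± 0.12. Nr1h3, the oxysterol receptor that drives such exporters, was 1.01 ± 0.12 higher at E18 than at E16, and Cyp27a1, an oxysterol-forming enzyme, was 2.93 ± 0.17 higher in the Adult than at E12. Macrophage markers, whose cells are rich in these transcripts, also rose at E18 in 6 of 8 cases. Their summed linear level ran between 26930 and 27320 at E18 and between 8283 and 9696 at E16. Lyz2 and Fabp5, with the highest E18 means (13.66 and 13.42), weigh most in this sum. Chil3, Lyz2 and Fabp5 rose by 4.90, 3.17 and 0.90, and Csf1r, Cd68 and Adgre1 by 0.77, 0.64 and 0.50. Marco (0.22) and Mrc1 (0.16) did not pass. The part of macrophages was not tested.

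**Figure D4:**
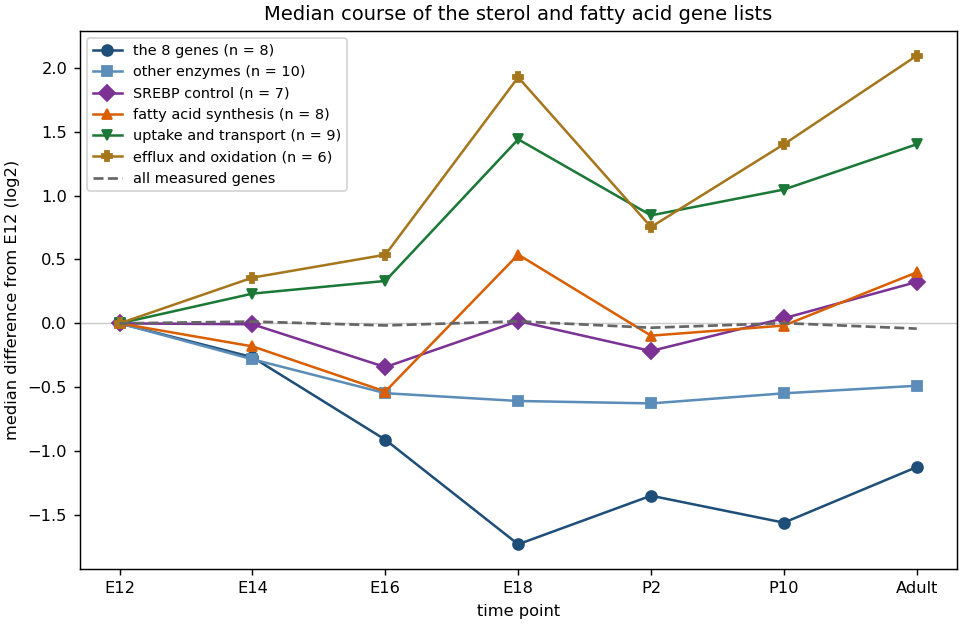
Median difference from E12 (log2, y axis) over the measured genes of 6 lists and over all 11663 measured genes (dashed) at the 7 time points (x axis). The 8 genes reach -1.73 at E18 and end at -1.12, the other enzymes lie between -0.49 and -0.63 after E16, and the uptake and efflux lists stand at 1.44 and 1.93 at E18.

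The genes whose course was most like the members' were ranked by Pearson's r over the 14 arrays with the mean of the 8 standardized members. Nsdhl, itself a cholesterol enzyme that acts on the demethylated sterols, came first of 11655 genes at 0.989. It averaged 10.31 at E12, 9.67 at E16, 9.21 at E18 and 9.6 in the Adult. After it came Strada (0.987), Trmt61a (0.985), Rbm28 (0.984), Spg20 (0.976), Htra2 (0.975), Nop14 (0.974), Rrp7a and Sema3d (0.973 each) and Fxyd6 (0.972). In all, 377 genes had an r of 0.9 or higher and 376 had -0.9 or lower, so that such values were common over 7 time points. Only 4 of the 10 were also among the top 10 by Spearman's rho, and 5 by r over the time-point means.

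The 8 genes had 21 probe sets between them, and these did not always tell the same story. Sqle and Dhcr7 had 1 each. All 5 sets of Hmgcs1 were highest at E12 and differed by -0.74 to -1.29 between Adult and E12, although the set used is of the _x_at kind, in which some probes may match other transcripts. The second set of Idi1 went lower at E18 than the one used, with a difference of -1.91 ± 0.21 against E16 (SE, adjusted p = 5.7e-06 in limma). For Fdft1, 1438322_x_at followed the set used, and 2 further sets stayed below 7 at every time point, with Max of 6.39 and 6.31 and adjusted p of 0.382 and 0.191 in the F test. The second set of Fdps had a Max of 3.47 and a Range of 0.18. For Cyp51, 1422533_at fell by 2.48 ± 0.16 at E16 against E14, more than the set used, and the highest time-point mean of 1422534_at was 6.24. At E14 against E12, 1422533_at was higher by 0.58 ± 0.16 (SE, adjusted p = 0.0772 in limma), where the set used was lower.

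The probe sets of Lss disagreed as well. The set used, 1420013_s_at, differed by -0.28 at E18 against E16, whereas 1426913_at rose by 0.76 ± 0.15 (SE, adjusted p = 0.00114 in limma) and was highest in the Adult. At E16 against E14 both fell, by 0.54 ± 0.17 (adjusted p = 0.051) and 0.68 ± 0.15 (adjusted p = 0.00755). Between Adult and E12 the sets differed by -0.66 and 0.20, and the lower call of Lss for that comparison was lost with 1426913_at (adjusted p = 0.285). The direction of Lss after E16 is therefore not settled by these arrays.

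**Figure D5:**
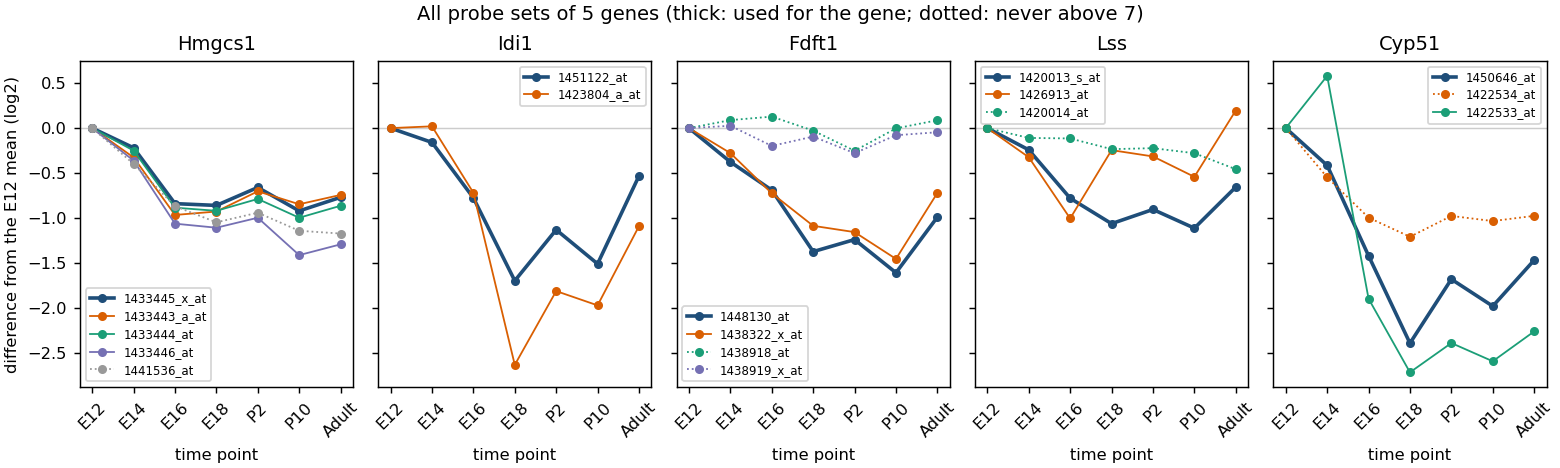
Difference from the E12 mean (log2, y axis) at the 7 time points (x axis) for every probe set of the 5 members with several informative or conflicting sets, thick for the set used and dotted where Max did not exceed 7. In Lss, 1426913_at ends at 0.20 in the Adult while the set used ends at -0.66.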

How the data were processed

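Total RNA of pooled ICR mouse lungs had been hybridised to 14 Affymetrix mouse genome arrays, 2 for each of 7 time points. The deposited log2 values were used as they stand. The authors' methods give Robust Multichip Average, run in Partek 6.4, whereas GCRMA stands in the submitters' processing notes, so which of them made the values is not known. The 64 control probe sets were left out. Gene symbols came from the platform annotation (34945 of 45037 probe sets with 1 symbol, 932 with several, 9160 with none), and a gene was represented by its brightest probe set on average.

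A mean per time point was fitted to all 45037 probe sets in limma 3.58.1 (R 4.3.3), with variances moderated (7 residual and 6.04 prior degrees of freedom) and p adjusted after Benjamini-Hochberg over all of them within each of 8 contrasts, later minus earlier. A difference was called at an adjusted p under 0.05. The fit was tested on simulated data. The number of arrays limits the precision. The genes named are the 8 members, up to 4 genes of each pathway list with the largest change in Adult against E12 or E18 against E16 together with Insig1, Srebf1 and Srebf2, and the 10 genes most like the members; Nsdhl falls under the last. Other probe sets of the members were named as a check. Members and lists were chosen with earlier results of these data known. Sequences are those of RefSeq (GRCm38.p6), and start positions there are annotated, not measured. Alternatives were other variance estimates, normalizations, filters, call rules and probe sets, the replicate number as a block, and leaving out each array. Some genes of the lists and of the naming rule are not reported here.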

Additional observations from a re-analysis of the deposited data

How the results depend on the processing

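Of 64 member differences (8 genes in 8 comparisons), 35 were called, and 19 of these kept their call under the 22 alternatives other than the stricter call rule, against 3 under all 23. Sqle and Dhcr7 had 1 probe set each. For them the next highest set and the mean of sets gave the same values, so those alternatives were no check of their calls. The 1 called difference that turned its direction was that of Lss between Adult and E12, at 0.197 with the next highest probe set. Among the uncalled differences 7 changed sign under an alternative. These were Hmgcs1 at E18 against E16 (0.035 with quantile normalization, 0.038 with the next highest probe set, -0.131 to 0.091 with 1 array left out), Idi1 at E14 against E12 (0.02, next highest probe set), Lss at E18 against E16 (0.759 with the next highest probe set, 0.119 with the mean of its sets), Fdft1 at P2 against E18 (-0.07 with the next highest probe set, -0.086 with the mean of sets, -0.059 to 0.327 with 1 array left out), Lss at P2 against E18 (-0.07, next highest probe set), Lss at E14 against E12 (-0.538 to 0.054 with 1 array left out) and Dhcr7 in the Adult against P10 (-0.077 to 0.18). The cause was not tested.

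Counts of members that moved by more than 1.5 times, or from or to 0, are listed here, and smaller changes are not all listed. Calls of single members lost with 1 array left out stand with each step above. With a trend in the prior variance, or with only probe sets of Max above 7 in the fit, 1 member (Fdps) passed as lower at E14 against E12 and 2 (Fdps and Fdft1) at P10 against P2. With the next highest probe set 1 member, Lss, was higher at E18 against E16. Fdps (-0.015, adjusted p = 0.937 in limma) and Cyp51 (-0.214, adjusted p = 0.352) lost their lower calls at that step. In the Adult against E12, Fdps (-0.036, adjusted p = 0.808) and Lss lost theirs. At E16 against E14, Fdps and Cyp51 lost their calls, and Fdft1 and Lss gained one. A stricter rule with a difference above 1.2 left 4 members lower in the Adult against E12 and 0 in the 5 other comparisons with calls. With 1 array left out, members lower at E14 against E12 and at P10 against P2 numbered 0 to 1, members higher at P2 against E18 2 to 4 (2 without P2 replicate 1) and members higher in the Adult against P10 3 to 6 (3 without Adult replicate 2). Centring the arrays, quantile normalization or unmoderated variances left each count of members within 1.5 times.

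For the 10 other enzymes, the 4 lower at E16 against E14 became 2 with quantile normalization and 1 to 5 with 1 array left out, and the 1 higher there (Ebp) became 0 with centred arrays and 0 to 1 with 1 array left out. At E18 against E16 the 1 higher (Sc5d) became 2 with probe sets of Max above 7, 0 with the next highest probe set or the mean of sets, and 1 to 2 with 1 array left out. At P2 against E18 the 3 higher became 5 with quantile normalization or probe sets of Max above 7. At P10 against P2 the 0 higher became 1 with the trend, quantile normalization, centring or probe sets of Max above 7, and 0 to 1 with 1 array left out, and the 1 lower became 0 with the next highest probe set or the mean of sets and 0 to 1 with 1 array left out. The 1 lower at E14 against E12 became 0 with the next highest probe set and 0 to 1 with 1 array left out. With the next highest probe set 1 was higher in the Adult against E12 and 3 against E18. The stricter rule left 1 higher in the Adult against E18 and 0 in every other comparison.

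Of the other lists as counted in the text, sterol uptake at P2 against E18 had 7 lower with the trend or with probe sets of Max above 7 and 8 with the mean of sets (4 as reported), and at E18 against E16 it had 1 lower with unmoderated variances, the next highest probe set or the mean of sets (0 as reported). For the isoprenoid branch at E18 against E16, the 1 higher (Fntb) became 0 with centred arrays or without any single array of E16, E18 or P2, and the 3 lower became 1 with the next highest probe set or without E16 replicate 2 or either E18 array.

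Over all probe sets, same-numbered replicates did not deviate together (correlation of deviations -0.18 to 0.0768 over 21 pairs). A batch that did not follow the replicate number, or that touched few probe sets, would not show in this. The fit with the replicate block changed no call of a member, with 6 lower at E18 against E16, and took the 1 other enzyme higher at E16 against E14 to 0.

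A difference not called with 2 arrays a group is not shown to be absent. The likeness ranking rests on 7 time points, and its order changes with the measure. Signal limits Lss, Cyp51 and Dhcr7 most, whose lowest time-point means were 6.99, 7.21 and 6.87. Probe sets cannot tell transcripts of a gene apart beyond their own target.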
